A study of Mus musculus with 2 samples.

Results

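The genes for the colony-stimulating factors and their receptors were followed through 1 single-cell RNA library of tumor-associated neutrophils (TANs) from Smad3-WT mice and 1 from Smad3-KO mice. They were chosen by name and are 8 of the 31053 genes in the count matrix, with 3 ligands (Csf1, Csf2 and Csf3) and 5 receptor chains (Csf1r, Csf2ra, Csf2rb, Csf2rb2 and Csf3r), and all 8 had at least 1 count. Both groups were C57BL/6 mice (C57BL/6 J in the study's methods) aged 8 to 12 weeks that carried subcutaneous tumors of LLC cells, a mouse Lewis lung carcinoma line. The groups differed in the host's Smad3, which was wild-type or deleted throughout the host (Smad3-/-), while the inoculated carcinoma cells were the same line in both. Tumors of a group were pooled, and cells positive for CD11b and Ly6G were sorted and processed with a 10x Genomics 5′ kit, so that 1 library stands for each genotype. The deleted allele is altered in 3′ exons of Smad3 that 5′ reads seldom reach, so Smad3 counts do not check the genotype labels here.

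Colony-stimulating factors are secreted proteins that control the production, survival and activation of myeloid cells. Csf3 (G-CSF) acts through a homodimer of Csf3r and drives granulopoiesis and the release of neutrophils from the bone marrow, Csf1 (M-CSF) acts through the tyrosine kinase Csf1r on monocytes and macrophages, and Csf2 (GM-CSF) acts through a ligand-specific alpha chain, Csf2ra, paired with the shared beta chain Csf2rb. Mice have a further beta chain gene, Csf2rb2, which arose by duplication of Csf2rb and whose protein serves the IL-3 receptor.

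The duplication matters for counting, since a read that matches both genes equally cannot be given to either. Csf2rb (ENSMUSG00000071713, chr15:78325752-78353847, plus strand) and Csf2rb2 (ENSMUSG00000071714, chr15:78282507-78305721, minus strand) are neighbours on chromosome 15 (GRCm38, GENCODE M21 annotation). Their coding sequences, of 2688 and 2634 bases, were identical at 95.2% of 2628 aligned bases, with a longest identical run of 242 bases. Their first 180 coding bases, which lie near the end of the transcript that a 5′ kit reads, differ at 7 positions, printed here in capitals.
Csf2rb: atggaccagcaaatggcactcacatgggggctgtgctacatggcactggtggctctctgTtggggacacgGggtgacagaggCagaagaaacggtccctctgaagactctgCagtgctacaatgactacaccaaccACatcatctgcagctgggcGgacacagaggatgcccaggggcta
Csf2rb2: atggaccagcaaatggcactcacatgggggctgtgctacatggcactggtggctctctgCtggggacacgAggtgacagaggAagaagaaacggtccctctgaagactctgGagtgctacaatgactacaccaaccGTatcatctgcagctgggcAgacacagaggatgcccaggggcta
Of the 411 windows of 90 bases that start within and fit into the first 500 bases of either transcript, 58 occur without a mismatch in the other transcript. Reads of 90 bases from those windows could not be placed in 1 of the genes. The study's methods give longer reads, and windows of that length were not counted. How far the counts of Csf2rb and Csf2rb2 are uncertain for this reason was therefore not measured.

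The stretch of 250 bases upstream of the RefSeq start site (GRCm38.p6) is shown for Csf1 and Csf2ra, the members with the lowest ratios between the libraries in neutrophil-like cells. Capitals mark GAGGAA, a core motif of the myeloid factor PU.1, on either strand.
Csf1, chr3:107760470-107760719, minus strand: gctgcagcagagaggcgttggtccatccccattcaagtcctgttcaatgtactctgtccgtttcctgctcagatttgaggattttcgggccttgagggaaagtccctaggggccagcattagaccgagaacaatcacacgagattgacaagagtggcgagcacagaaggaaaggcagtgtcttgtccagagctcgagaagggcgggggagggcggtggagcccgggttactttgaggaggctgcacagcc
Csf2ra, chr19:61228419-61228668, minus strand: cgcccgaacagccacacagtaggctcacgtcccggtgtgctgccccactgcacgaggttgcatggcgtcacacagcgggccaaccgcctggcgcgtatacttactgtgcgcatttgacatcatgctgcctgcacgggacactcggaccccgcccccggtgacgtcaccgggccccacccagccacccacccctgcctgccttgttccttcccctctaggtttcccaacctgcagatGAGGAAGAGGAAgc
Of 32851 upstream sequences of this length, 23.3% held GAGGAA on either strand, and Csf2ra held 2 copies next to each other while Csf1 held 0. In the GENCODE M21 annotation, Csf2ra begins at 61228429 on the minus strand. The last bases of its window, with most bases of the 2 copies, thus lie inside that annotated gene. The 5-base Smad box GTCTG, searched on both strands, was in 42.2% of the sequences and in neither of these 2. The C/EBP motif TTNNGNAA, where N is any base, was in 36.9%, with 1 copy in Csf2ra and 0 in Csf1. A match of TTNNGNAA can hold GAGGAA, so the shares of these motifs can overlap. Of the 8 members, 5 had an entry in the RefSeq table of start sites. A motif match describes letters in this window and says nothing of binding.

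The libraries differed in depth and in the cells they held. After filtering, 3520 Smad3-WT cells with 12176201 UMIs (unique molecular identifiers, 1 per captured RNA molecule) and 2433 Smad3-KO cells with 4146792 UMIs remained, with median depths of 1318.5 and 1199 UMIs per cell. Although the sort selected neutrophils, marker genes placed only 1820 Smad3-WT cells (51.7%) and 1082 Smad3-KO cells (44.5%) in the neutrophil-like class. A class of macrophage, monocyte or dendritic-like cells, called mononuclear phagocyte-like below, held 1184 and 200 cells, and B cell-like cells numbered 2 and 565. The neutrophil-like cells fell into 4 clusters, built without the 8 genes. Cluster 1 (led by H2-Q10, Mmp9, Il1r2 and G0s2) held 1386 Smad3-WT and 138 Smad3-KO cells, and cluster 6 (Ifit3b, Gm13822, Ifit3 and Gm43661) held 421 and 33. Cluster 2 (Il1a, Csf3, Stfa2 and Tnfaip3) held 13 and 850, and cluster 13 (Ngp, Camp, Ltf and Ly6g) held 0 and 61. Clusters 1 and 6 thus held most Smad3-WT neutrophil-like cells and cluster 2 most Smad3-KO ones, so each of them could reflect its library instead of a kind of cell. The libraries shared 73 cell barcodes, of which 24 Smad3-WT and 46 Smad3-KO cells passed the filter, and no ratio of the 7 measured genes in neutrophil-like cells changed direction without them. Levels are UMIs of a gene per 1000000 UMIs (CPM) with exact Poisson intervals, shares of cells have Clopper-Pearson intervals (exact), and a ratio is the Smad3-KO level divided by the Smad3-WT level with an exact interval from the split of its UMIs, all at 95%. Intervals cover counting error only. With 1 library per genotype there is no replicate error and no test of genotype, and fewer cells of a kind and less RNA per cell cannot be told apart in a sum over cells.

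**Figure D1:**
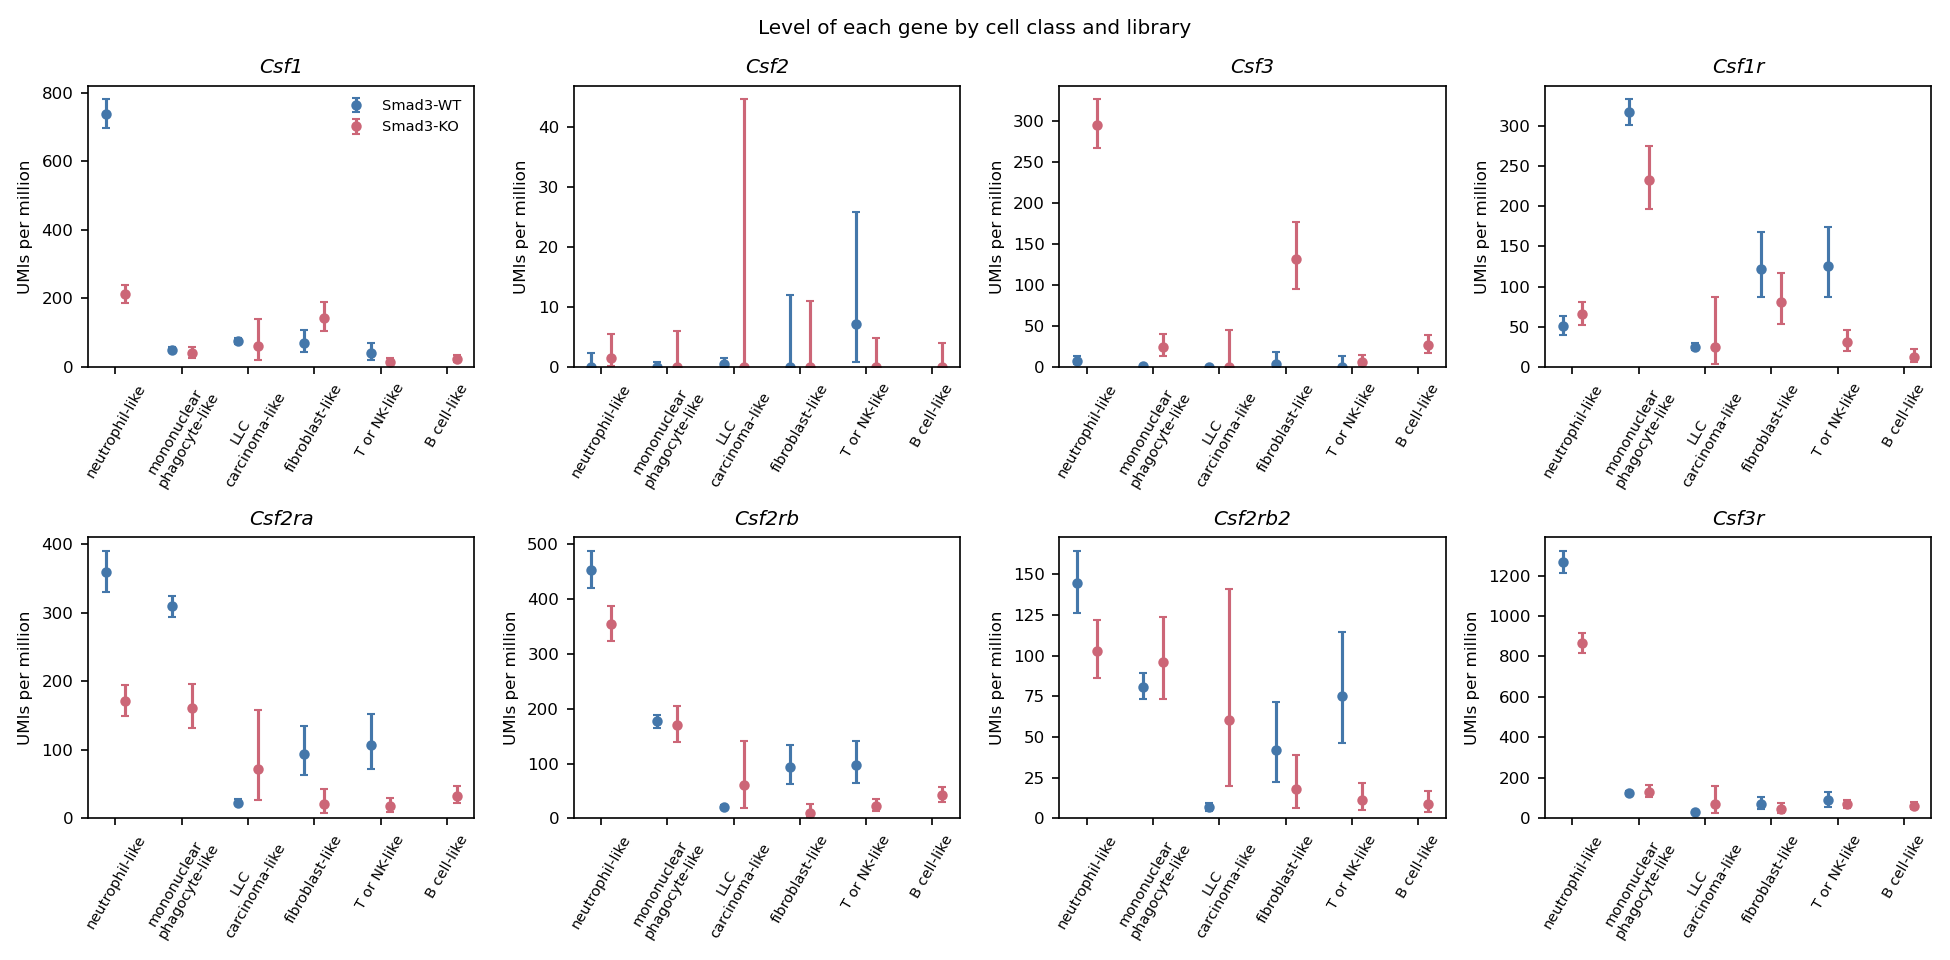
Level of each gene (CPM, linear axis from 0) in 6 cell classes, with Smad3-WT in blue and Smad3-KO in red and bars for exact 95% Poisson intervals; arms under 20 cells are not drawn. In neutrophil-like cells, Csf3 stood at 7.58 and 295, Csf1 at 738 and 212 and Csf3r at 1266 and 866 in Smad3-WT and Smad3-KO.

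Csf3, the granulocyte factor, set the libraries furthest apart. Neutrophil-like cells held 12 UMIs of Csf3 (ENSMUSG00000038067, chr11:98701263-98703629) in the Smad3-WT library, at 7.58 CPM (interval 3.92 to 13.2), and 389 in the Smad3-KO library, at 295 CPM (interval 267 to 326). The ratio was 38.9 (interval 22.0 to 76.0). A UMI of Csf3 was found in 5 of 1820 Smad3-WT cells (0.275%, interval 0.0893 to 0.640) and in 180 of 1082 Smad3-KO cells (16.6%, interval 14.5 to 19.0), whose median depths were 739 and 1016.5 UMIs. Thinned to 500 UMIs per cell, the shares were 0.220% and 8.60%. Up to 17 UMIs came from a single Smad3-KO cell, and the 10 highest cells held 19.3% of the 389.

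Nearly all Csf3 of the neutrophil-like cells came from cluster 2, where the 850 Smad3-KO cells held 378 UMIs, at 364 CPM (interval 328 to 402), and the 13 Smad3-WT cells held 0, where 3 counts would be 23.1% of cells with a UMI. In cluster 1, which both libraries share, Csf3 stood at 9.94 CPM in Smad3-WT (12 UMIs) and 10.0 CPM in Smad3-KO (1 UMI), a ratio of 1.01 with an interval from 0.0235 to 6.80. The difference over the class and the difference in which clusters the cells occupy therefore cannot be told apart. In cluster 13, whose leading genes Ngp, Camp and Ltf encode proteins of secondary granules made during neutrophil maturation, the 61 Smad3-KO cells held 10 UMIs, at 64.3 CPM (interval 30.9 to 118).

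Other classes of the Smad3-KO library also carried Csf3. Fibroblast-like cells had 1 UMI of Csf3 among 44 Smad3-WT cells (3.22 CPM). Their 60 Smad3-KO counterparts had 44 UMIs (131 CPM), all held by 10 cells. The Smad3-KO level was 0.445 times that of the neutrophil-like cells of the same library, above the range of 0 to 0.360 for the 10 neutrophil markers in fibroblast-like cells. B cell-like cells, taken as a class that should lack Csf3, had 25 UMIs in 565 Smad3-KO cells (26.7 CPM) and a UMI in 2.30% of cells (interval 1.23 to 3.90) at a median depth of 1242 UMIs. Their level was 0.0903 times the neutrophil-like one, inside the 0.0172 to 0.0997 that the neutrophil markers gave, and the share was read as background. Mononuclear phagocyte-like cells had 3 and 15 UMIs (0.600 and 24.5 CPM). Their Smad3-KO level was 0.0829 times that of the neutrophil-like cells, also inside the range of the neutrophil markers (0.00877 to 0.125). T or NK-like cells had 0 and 5 UMIs, and LLC carcinoma-like cells had 0 in both libraries, where 3 counts would be 0.741% of the 405 Smad3-WT cells with a UMI.

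Csf1, the macrophage factor, had its highest level in neutrophil-like cells and went the other way. It was counted 1168 times in Smad3-WT neutrophil-like cells, at 738 CPM (interval 696 to 782), and 279 times in Smad3-KO, at 212 CPM (interval 188 to 238), a ratio of 0.287 (interval 0.251 to 0.327). A UMI of Csf1 (ENSMUSG00000014599, chr3:107741048-107760469) was found in 34.2% of the Smad3-WT class (interval 32.0 to 36.4), whereas the deeper Smad3-KO class had one in 17.7% (interval 15.5 to 20.2). In B cell-like cells of the Smad3-KO library the share was 2.83%. Inside cluster 1 the Csf1 levels lay apart as well, at 794 CPM (interval 745 to 846) in Smad3-WT and 330 CPM (interval 227 to 464) in Smad3-KO, a ratio of 0.416 (interval 0.285 to 0.588). In cluster 6 the levels were 569 and 373 CPM with a ratio interval of 0.296 to 1.27. The Smad3-KO cells of cluster 2 stood at 221 CPM and those of cluster 13 at 45.0 CPM (interval 18.1 to 92.8).

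Outside the neutrophil-like cells, Csf1 stood lower in each class, although in Smad3-KO the interval of the fibroblast-like level (105.5 to 189.8) reached that of the neutrophil-like one. LLC carcinoma-like cells of the Smad3-WT library had 75.3 CPM (interval 67.9 to 83.3) in 405 cells, and their 39 Smad3-KO counterparts had 5 UMIs at a median depth of 670 UMIs against 13150. Fibroblast-like cells stood at 70.9 CPM in Smad3-WT and 143 in Smad3-KO (22 and 48 UMIs), a ratio of 2.02 (interval 1.20 to 3.51), opposite to the direction in neutrophil-like cells. The Smad3-KO level was 0.676 times that of neutrophil-like cells, above the 0 to 0.360 of the 10 neutrophil markers. In mononuclear phagocyte-like cells the levels were 49.98 and 39.1 CPM, whose intervals overlap. In Smad3-WT the order was neutrophil-like, LLC carcinoma-like, fibroblast-like, mononuclear phagocyte-like and T or NK-like cells. Below the neutrophil-like class each neighbouring pair had overlapping intervals, while the LLC carcinoma-like level (interval 67.9 to 83.3) lay above the mononuclear phagocyte-like one (interval 43.97 to 56.6). Relative to Smad3-WT neutrophil-like cells, Csf1 stood at 0.0960 in fibroblast-like, 0.0677 in mononuclear phagocyte-like and 0.0533 in T or NK-like cells. Each lay inside the range of the neutrophil markers (0 to 0.189, 0.0601 to 0.109 and 0 to 0.134). The LLC carcinoma-like quotient of 0.102 lay above theirs (0.0104 to 0.0596). The part of neutrophil RNA in these Csf1 counts was not tested.

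Csf2, the granulocyte-macrophage factor, was close to absent from the counts. Csf2 (ENSMUSG00000018916, chr11:54247271-54249667) was counted 4 times over all Smad3-WT cells and 2 times over all Smad3-KO cells. The Smad3-WT UMIs lay in LLC carcinoma-like cells (2 UMIs) and in 1 T or NK-like cell (2 UMIs), and the Smad3-KO UMIs in 2 neutrophil-like cells. It had 0 UMIs in 1820 Smad3-WT neutrophil-like cells, where 3 counts would be 0.165% of cells with a UMI. These limits of 3 counts concern cells with a UMI, not cells that express a gene. No ratio is given, since both libraries lay within 4 UMIs.

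Csf3r, which lets neutrophils respond to Csf3, was the receptor chain most confined in its counts to neutrophil-like cells. It had 2004 UMIs in Smad3-WT neutrophil-like cells, at 1266 CPM (interval 1211 to 1323), and 1141 in Smad3-KO, at 866 CPM (interval 816 to 917), which made the ratio 0.684 (interval 0.635 to 0.736). The share of cells with a UMI of Csf3r (ENSMUSG00000028859, chr4:126024550-126044440) was 55.8% (interval 53.4 to 58.1) in Smad3-WT and 53.5% (interval 50.5 to 56.5) in Smad3-KO. B cell-like cells of the Smad3-KO library showed a UMI in 7.61% of cells. At 500 UMIs per cell the neutrophil-like shares were 40.9% and 33.5%. The direction of Csf3r depended on the cluster: in cluster 1 the level was 1372 CPM (interval 1307 to 1440) in Smad3-WT and 2041 CPM (interval 1771 to 2341) in Smad3-KO, a ratio of 1.49 (interval 1.28 to 1.72). The lower class level of the Smad3-KO library lay in cluster 2, at 825 CPM (interval 771 to 882), and in cluster 13, at 418 CPM (interval 323 to 533), while cluster 6 stood at 938 CPM in Smad3-WT and 622 CPM in Smad3-KO with a ratio interval of 0.367 to 1.11. Mononuclear phagocyte-like cells stood at 125 CPM in Smad3-WT and 130 CPM in Smad3-KO. Their quotient to the neutrophil-like level was 0.0991 in Smad3-WT, where the 10 neutrophil markers gave 0.0601 to 0.109, and 0.151 in Smad3-KO, where they gave 0.00877 to 0.125.

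The GM-CSF receptor alpha chain Csf2ra (ENSMUSG00000059326, chr19:61223957-61228429) was lower in the Smad3-KO library in neutrophil-like and mononuclear phagocyte-like cells. Neutrophil-like cells had 570 UMIs at 360 CPM (interval 331 to 391) in Smad3-WT and 226 UMIs at 171 CPM (interval 150 to 195) in Smad3-KO, a ratio of 0.476 (interval 0.406 to 0.556). Mononuclear phagocyte-like cells had 310 CPM (1548 UMIs) and 161 CPM (99 UMIs), a ratio of 0.521 (interval 0.421 to 0.639). Within cluster 1, the levels of 408 and 340 CPM had a ratio of 0.834, whose interval of 0.571 to 1.18 includes 1. The Smad3-KO cells of cluster 2 stood at 158 CPM (interval 135 to 184). The share of neutrophil-like cells with a UMI of Csf2ra was 25.1% and 16.9%, beside 5.13% of B cell-like cells in the Smad3-KO library.

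The beta chains moved less. In neutrophil-like cells, Csf2rb had 718 UMIs at 454 CPM (interval 421 to 488) in Smad3-WT and 467 UMIs at 354 CPM (interval 323 to 388) in Smad3-KO, a ratio of 0.781 (interval 0.693 to 0.879). Neutrophil-like cells with a UMI of Csf2rb made up 29.4% in Smad3-WT and 31.5% in Smad3-KO, beside 5.49% of the B cell-like class. Thinned to 500 UMIs per cell, the neutrophil-like shares stood in the other order, at 19.1% in Smad3-WT and 17.4% in Smad3-KO. Csf2rb2 had 229 UMIs at 145 CPM and 136 UMIs at 103 CPM, a ratio of 0.713 (interval 0.572 to 0.885). In cluster 1 both ratios had intervals that include 1, from 0.986 to 1.68 for Csf2rb and from 0.502 to 1.69 for Csf2rb2. In mononuclear phagocyte-like cells the Csf2rb levels were 177 and 170 CPM and the Csf2rb2 levels 81.0 and 96.2 CPM, with overlapping intervals for each gene.

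Csf1r (ENSMUSG00000024621), the receptor that macrophages depend on, was low in neutrophil-like cells, with 80 UMIs at 50.5 CPM (interval 40.1 to 62.9) in Smad3-WT and 86 UMIs at 65.2 CPM (interval 52.2 to 80.6) in Smad3-KO. The ratio of 1.29 had an interval of 0.941 to 1.77. These levels were 0.159 and 0.280 times those of mononuclear phagocyte-like cells in the same library. The 10 macrophage markers gave quotients of 0.0160 to 0.371 in Smad3-WT (median 0.0283) and 0.0150 to 1.17 in Smad3-KO (median 0.0453), so Csf1r lay inside both ranges and above both medians. The part of macrophage RNA in these counts was not tested. In mononuclear phagocyte-like cells Csf1r had 1587 UMIs at 317 CPM (interval 302 to 333) in Smad3-WT and 143 UMIs at 233 CPM (interval 196 to 275) in Smad3-KO, a ratio of 0.735 (interval 0.615 to 0.872). Without the upper limit on UMIs, where the cells were also clustered and named anew, the ratio was 1.02. Its direction thus depended on that setting as a whole. The class also held different clusters in each library. Cluster 12, which had little Csf1r, made up 27 of the 1184 Smad3-WT cells and 42 of the 200 Smad3-KO cells. In Smad3-WT and Smad3-KO, Csf1r stood at 422 and 522 CPM in cluster 9, which held 190 and 21 cells. Cluster 3 stood at 291 and 394 CPM, with a ratio interval of 0.975 to 1.83 that includes 1. Cluster 8 was lower in Smad3-KO, at 316 and 202 CPM, with a ratio interval of 0.479 to 0.840. The ratio of the class and the difference in which clusters its cells occupy cannot be told apart.

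Counted with a limit of 2-fold among genes with at least 20 UMIs over both libraries, 7 of the 8 genes were measured in neutrophil-like cells. Of these, 1 was higher in Smad3-KO (Csf3), beside 7.95% of all 6015 genes measured, and 2 were lower (Csf1 and Csf2ra), beside 17.8% of all genes. The median ratio was 0.713 over the 7 genes and 0.797 over all genes, so that the neutrophil-like ratios of Csf2rb, Csf2rb2 and Csf3r lay near the middle of the table. Scaled to the median gene, the ratios were 0.861 for Csf3r, 0.983 for Csf2rb, 0.599 for Csf2ra and 0.361 for Csf1, and only Csf1 stayed past the limit among the lower genes. In cluster 1 alone, where Csf3 had too few UMIs to be counted, 0 of 6 measured genes were past the limit upward, beside 8.93% of 4448 genes, and 1 (Csf1) downward, beside 18.2%.

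**Figure D2:**
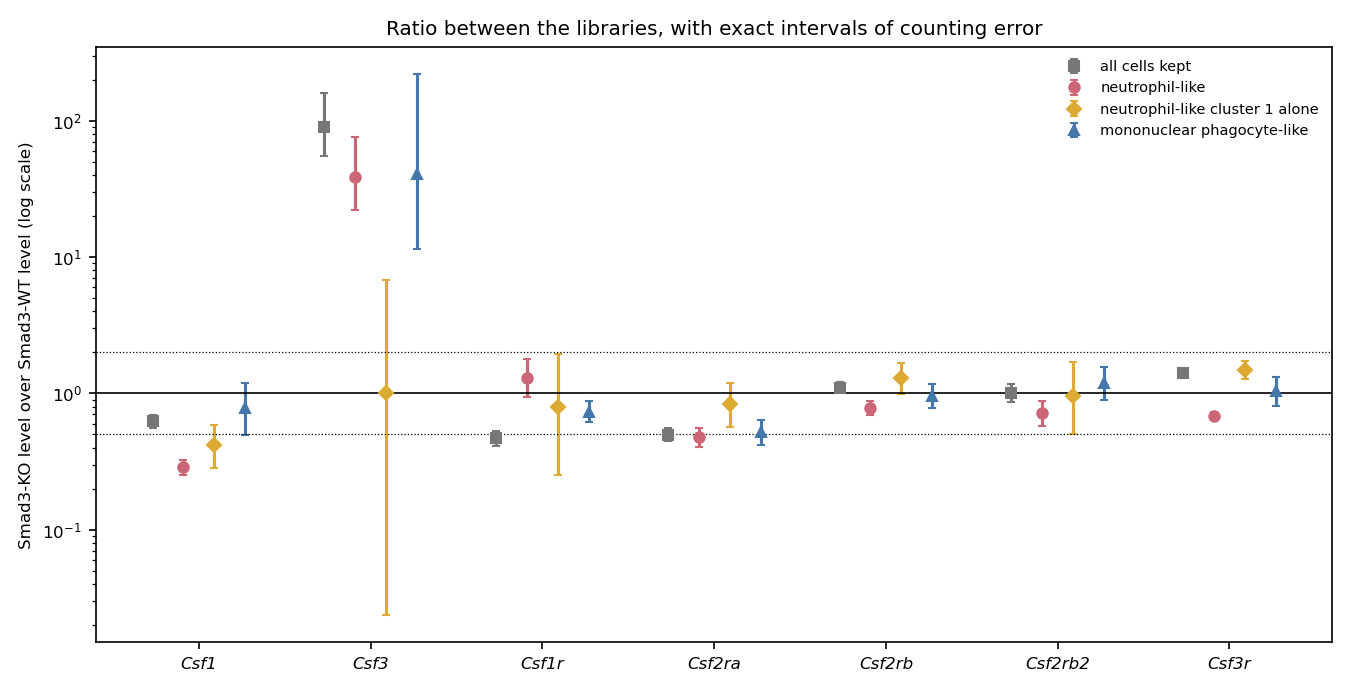
Smad3-KO level over Smad3-WT level (log axis) of the 7 genes with enough UMIs in neutrophil-like cells, with exact 95% intervals of counting error. The sets are all cells, neutrophil-like cells, cluster 1 alone and mononuclear phagocyte-like cells, and dotted lines mark the 2-fold limit. Csf3 had too few UMIs to be counted in cluster 1 (12 in Smad3-WT, 1 in Smad3-KO) and in mononuclear phagocyte-like cells (3 and 15). Csf3r lay below 1 in neutrophil-like cells (0.684) and above 1 in cluster 1 (1.49), and Csf3 at 38.9 in the class and 1.01 in cluster 1.

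**Figure D3:**
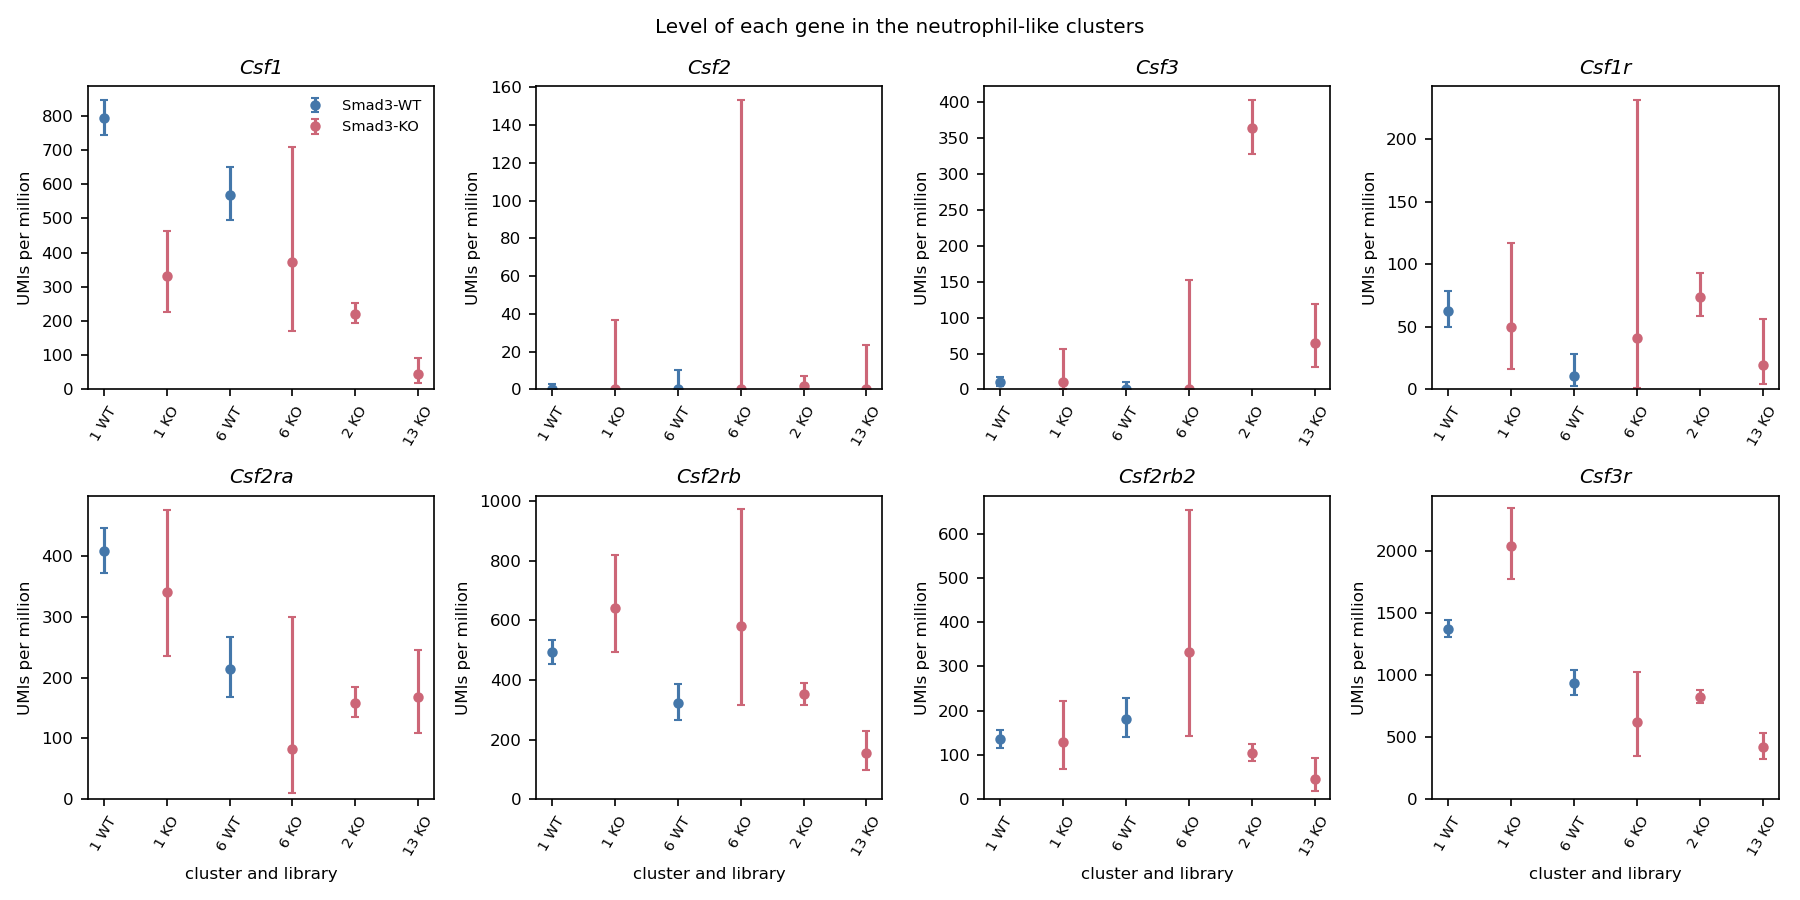
Level of each gene (CPM) in the neutrophil-like clusters 1, 6, 2 and 13, with Smad3-WT in blue, Smad3-KO in red and bars for exact 95% Poisson intervals; the 13 Smad3-WT cells of cluster 2 are not drawn. Csf3 stood out in cluster 2 of Smad3-KO (364), Csf1 in cluster 1 of Smad3-WT (794) and Csf3r in cluster 1 of Smad3-KO (2041).

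Within the mononuclear phagocyte-like class, receptor chains marked different clusters. In the Smad3-WT library, Csf1r was highest in cluster 9 (led by Ccl8, Cbr2, Folr2 and C1qa), at 422 CPM (interval 387 to 461) with a UMI in 84.2% of 190 cells. It stood at 316 CPM in cluster 8 (Mgl2, H2-Eb1, Cd209a and H2-Ab1), 291 CPM in cluster 3 (Ccl24, Ppbp, Vcan and Mmp12) and 215 CPM in cluster 10 (Mx1, Hspa1a, Ifit1bl1 and Ms4a4c), and clusters 8 and 3 had overlapping intervals. Cluster 12 (Ccl22, Ccl5, Apol7c and H2-M2) had only 4 UMIs of Csf1r in 27 Smad3-WT cells and 2 in 42 Smad3-KO cells. Csf2ra followed another order in Smad3-WT, with 391 CPM in cluster 8, 354 in cluster 3, 279 in cluster 10, 258 in cluster 12 and 170 in cluster 9 (interval 148 to 195). Csf2rb2 was highest in cluster 12 in both libraries, at 238 CPM in Smad3-WT (interval 153 to 354) and 244 CPM in Smad3-KO (interval 167 to 345), against 36.3 CPM in cluster 9 of Smad3-WT (interval 26.4 to 48.8).

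Over the mononuclear phagocyte-like class as a whole, 6 of the 8 genes had at least 20 UMIs and 0 were past the 2-fold limit in either direction, beside 12.8% of 9661 genes higher and 8.94% lower in Smad3-KO. Clusters 3 and 8 held enough cells of both libraries to compare. In cluster 3, with 615 Smad3-WT and 54 Smad3-KO cells, Csf2ra had a ratio of 0.618 (interval 0.397 to 0.920), and Csf1r a ratio of 1.35 whose interval of 0.975 to 1.83 includes 1. In cluster 8, with 220 and 76 cells, Csf1r had a ratio of 0.639 (interval 0.479 to 0.840), Csf2ra of 0.476 (interval 0.354 to 0.629) and Csf2rb2 of 0.478 (interval 0.260 to 0.820). Csf1r thus lay on opposite sides of 1 in these clusters, while Csf2ra was lower in the Smad3-KO library in both.

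A further cluster of 28 cells, 25 of them in the Smad3-KO library, was left unnamed, since it met 3 of 5 endothelial markers but had 0 of them, and 1 marker of another class, among its 10 leading genes. It was led by Siglech, Cox6a2, Smim5 and Klk1, of which Siglech is a gene of plasmacytoid dendritic cells. Its Smad3-KO cells carried the beta chains at 336 CPM for Csf2rb (interval 222 to 489) and 261 CPM for Csf2rb2 (interval 162 to 400), with a UMI of Csf2rb2 in 60% of cells. Csf2ra had 5 UMIs there (62.2 CPM). Csf3 had 12 UMIs in 24% of the cells (149 CPM, interval 77.2 to 261).

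In fibroblast-like cells, 6 of the genes were measured, with 2 higher in Smad3-KO (Csf1 and Csf3) beside 8.9% of 4483 genes, and 2 lower (Csf2ra and Csf2rb) beside 8.97%. Csf1 was close to the limit at 2.02, and fell short of it, for example, at 1.70 with each cell weighted equally. The receptor chains there were few, with 29 UMIs of Csf2ra in 44 Smad3-WT cells and 7 in 60 Smad3-KO cells, and 29 and 3 UMIs of Csf2rb. Csf2ra stood at 93.4 and 20.9 CPM, against 310 and 161 CPM in mononuclear phagocyte-like cells. Csf2rb stood at 93.4 and 8.95 CPM, against 177 and 170 CPM in that class. The part of macrophage RNA in these fibroblast-like counts was not tested. Csf1r had 38 and 27 UMIs, at 122 and 80.5 CPM. The Csf1r levels were 0.386 and 0.345 times those of the mononuclear phagocyte-like cells, with macrophage markers at 0.186 to 0.452 times (median 0.388) in Smad3-WT and 0.0147 to 0.341 times (median 0.0572) in Smad3-KO. The T or NK-like cells showed the 5 receptor chains at 75.1 to 125 CPM in Smad3-WT, where 62 cells were caught at a median of 3372 UMIs, and at 11.6 to 70.6 CPM in Smad3-KO, where 462 cells had a median of 1353. Their Csf3r stood at 0.0706 and 0.0816 times the neutrophil-like level in Smad3-WT and Smad3-KO. Neutrophil markers gave 0 to 0.134 and 0.0207 to 0.0572, so only the Smad3-WT quotient lay inside. The part of myeloid RNA in these T or NK-like counts was not tested.

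Summed over all cells, the libraries gave other ratios than within the classes. Csf3r had 2848 UMIs at 234 CPM in Smad3-WT and 1375 UMIs at 332 CPM in Smad3-KO, a ratio of 1.42 (interval 1.33 to 1.51), on the other side of 1 from the neutrophil-like cells. With each cell weighted equally the all-cell ratio of Csf3r was 0.638, and with cells thinned to 500 UMIs it was 0.690. Csf1 had a ratio of 0.627 (interval 0.560 to 0.699), Csf2ra of 0.497 (interval 0.445 to 0.553) and Csf1r of 0.467 (interval 0.412 to 0.528). Csf2rb and Csf2rb2 stood near 1, at 1.10 and 1.01, and Csf3 had 16 and 490 UMIs and a ratio of 89.9 (interval 54.8 to 159). At the 2-fold limit, 1 of 7 measured genes was higher (Csf3), beside 16.3% of 12612 genes, and 2 were lower (Csf1r and Csf2ra), beside 15.4%. Without the upper limit on UMIs both missed the limit, at 0.825 for Csf1r and 0.912 for Csf2ra.

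The sums drew on different cells in each library. Of the UMIs of Csf1r, 85% lay in mononuclear phagocyte-like cells in Smad3-WT and 48.1% in Smad3-KO, where that class was 33.6% and 8.22% of cells. Neutrophil-like cells held 24.9% of the Csf2ra UMIs of Smad3-WT and 58.2% of those of Smad3-KO, and 40.6% and 70.4% of those of Csf2rb. For Csf3r the neutrophil-like shares were 70.4% and 83.0%, and for Csf1 they were 63.6% and 71.2%. LLC carcinoma-like cells gave 20.4% of the Csf1 UMIs of Smad3-WT and 1.28% of those of Smad3-KO, and fibroblast-like cells 1.20% and 12.2%. Csf3 came to 79.4% from neutrophil-like cells, to 8.98% from fibroblast-like cells and to 5.10% from B cell-like cells in Smad3-KO.

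**Figure D4:**
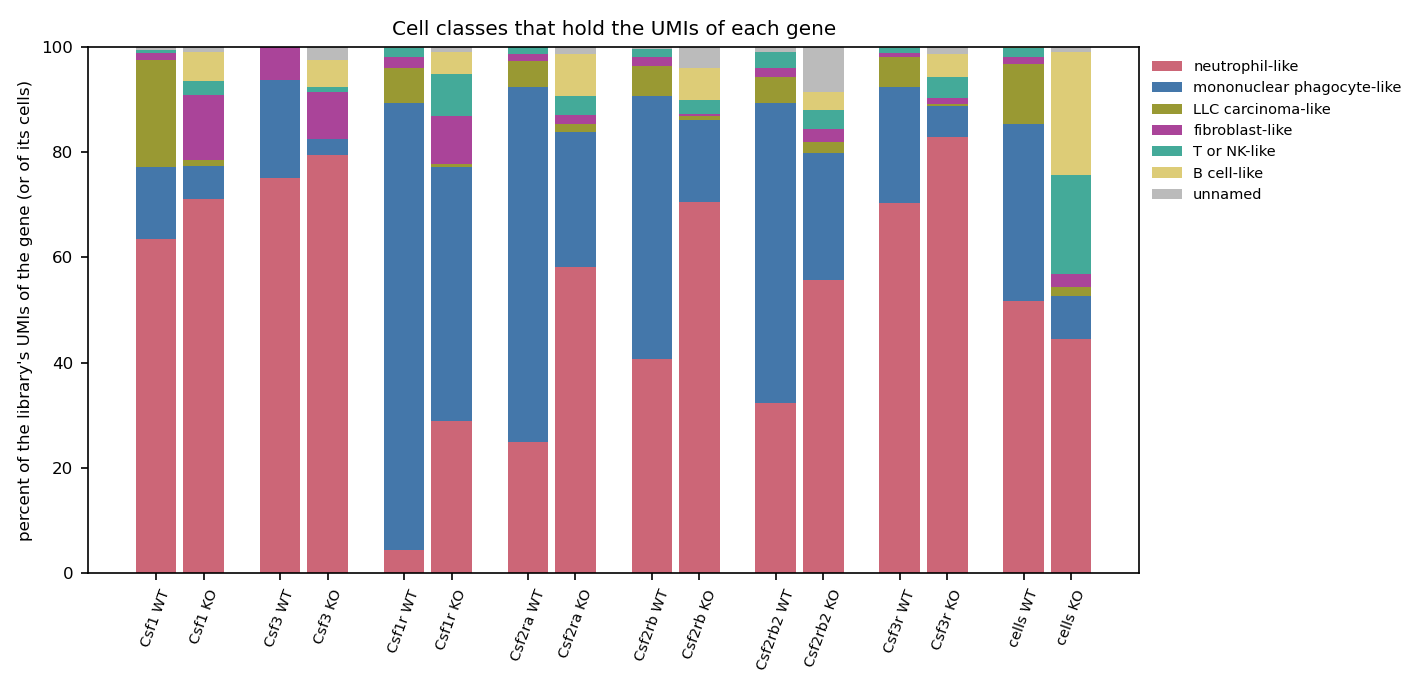
Percent of each library's UMIs of a gene that lay in each cell class (stacked bars summing to 100), with the percent of its cells in the last pair of bars; Csf2, with 4 and 2 UMIs, is not drawn. Neutrophil-like cells held 70.4% and 83.0% of Csf3r UMIs in Smad3-WT and Smad3-KO but 4.28% and 29.0% of Csf1r UMIs.

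Ligand and receptor were met in the same neutrophil-like cells. In the Smad3-KO library, 103 of the 180 cells with a UMI of Csf3 also had one of Csf3r (57.2%, interval 49.6 to 64.6), against 476 of the 902 cells without Csf3 (52.8%, interval 49.4 to 56.1), with median depths of 1203 and 974 UMIs. At 500 UMIs per cell the shares were 33.3% and 33.5%. Csf1 and Csf3 shared 39 of 192 Csf1-positive Smad3-KO cells (20.3%), against 15.8% of cells without Csf1, and 8.57% and 8.60% when thinned. Csf1r was found in 15 of the 192 Csf1-positive cells of Smad3-KO (7.81%), against 6.29% of cells without Csf1. In Smad3-WT it was found in 27 of the 622 (4.34%), against 4.17%. The intervals of these Csf1r shares overlapped in each library. Among cells thinned to 500 UMIs, Csf2rb was found in 17.2% of Smad3-KO cells with Csf2ra and 17.4% without, and in 17.4% and 19.4% in Smad3-WT. Of the 87 thinned Smad3-KO cells with Csf2ra, 50.6% held Csf3r (interval 39.6 to 61.5), against 32.0% of 995 without (interval 29.1 to 35.0). In Smad3-WT the Csf3r shares were 40.8% and 41.0%. Smad3-KO cells of clusters 1 and 2 differed in both genes, at 340 and 158 CPM for Csf2ra and 2041 and 825 CPM for Csf3r. The part of this difference in the Csf3r shares was not tested.

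Other genes of the pathway were counted from lists chosen for their roles. Of 14 kinases, STATs and adaptors below the receptors, 13 were measured in neutrophil-like cells. Tyk2, a kinase of the Jak family, was among those at least 2-fold higher in Smad3-KO (9 and 22 UMIs, ratio 2.94), and Tyrobp, an adaptor of activating receptors, and Gab2 were at least 2-fold lower (0.325 and 0.390). Jak2, the kinase bound to Csf3r and the beta chains, stood at 140 and 141 CPM. The median over the list was 1.20, beside 0.797 over all genes.

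Of 17 feedback inhibitors and target genes, 15 were measured, with 1 higher and 3 lower (6.67% and 20%, beside 7.95% and 17.8% of all genes) and a median ratio of 0.799, close to the 0.797 of all genes. The lower ones were Cish, a STAT5 target that inhibits cytokine signalling, at 166 CPM in Smad3-WT and 22.8 in Smad3-KO (ratio 0.137, interval 0.0906 to 0.200), Osm at 1644 and 462 CPM (0.281) and Socs3, the inhibitor of the Csf3 receptor, at 946 and 365 CPM (0.386). Pim2 was higher, with 5 and 30 UMIs. Pim1 stood at 1116 and 2170 CPM, a ratio of 1.94, and Mcl1, which keeps neutrophils alive, at 1303 and 2198 CPM, a ratio of 1.69.

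The next list held 14 genes tied to induction of the ligand genes, including the NF-κB inhibitor Nfkbia. Like the other lists, it was chosen with earlier results of these data known. Of these genes, 13 were measured, with 7 higher and 1 lower (53.85% and 7.69%, beside 7.95% and 17.8% of all genes). The median ratio was 2.11, beside 0.797 over all genes. Il1a had the highest ratio, at 65.7 and 708 CPM (10.8, interval 8.79 to 13.3), and leads cluster 2 together with Csf3. Tnf followed at 196 and 771 CPM (3.92) and Nfkbia, the inhibitor of NF-κB that NF-κB itself induces, at 2021 and 7682 CPM (3.80). Tlr4, the receptor for endotoxin, was lower at 347 and 91.0 CPM (0.262), and Il1b had a ratio of 1.01 (interval 0.988 to 1.04). Of 9 relatives of the family, such as Il3, Il5, Kit and Flt3 and their partners, 0 reached 20 UMIs in neutrophil-like cells.

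In the mononuclear phagocyte-like class, 12.8% of all 9661 measured genes were at least 2-fold higher and 8.94% lower in Smad3-KO. Their median ratio was 1.06. Of 13 measured genes of the list tied to induction, 5 were higher (38.5%) and 1 lower (7.69%). The highest ratios were those of Il1a (7.32), Tnf (3.51) and Relb (3.17), and Tlr4 was lowest (0.290). In the Smad3-KO library, Il1a stood at 57.05 CPM in this class and 708 CPM in neutrophil-like cells, and Tnf at 105.9 and 771 CPM. The part of neutrophil RNA in these counts was not tested. Of the relatives of the family, 4 were measured and 3 were higher, among them Flt3, a receptor of dendritic cells and their precursors, at 6.80 and 94.5 CPM, and Kit at 4.20 and 37.5 CPM. Clusters 8 and 12, whose best-met marker list was that of dendritic cells, held 76 and 42 of the 200 Smad3-KO cells but 220 and 27 of the 1184 Smad3-WT cells, which cannot be told apart from these differences. The kinases, STATs and adaptors had 3 of 14 higher (21.4%) and 0 lower, with a median of 1.30. The feedback inhibitors and targets had 2 of 17 higher (11.8%) and 6 lower (35.3%), with a median of 0.717. Csf1r and Csf2ra, which act in the same cells, had ratios of 0.735 and 0.521.

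The authors' deposited table gave the average of each gene in 13 clusters of their own, over both libraries, which are numbered apart from the clusters above and are given here as CPM. Csf3 was highest in cluster 3 of that table (406 CPM), which also had the highest Lcn2, and then in cluster 4 (110 CPM), and the other clusters stood at 20.6 CPM or lower. Csf3r was highest in cluster 6 (1903 CPM), where Cxcr2 peaked, and then in clusters 1 (1130 CPM) and 10 (1000 CPM), the latter with the highest Ngp and S100a8. Csf1 was highest in the same 3 clusters, at 706 CPM in cluster 10, 675 in cluster 1 and 666 in cluster 6. Csf1r was highest in clusters 12 (408 CPM), 7 (366 CPM, with the highest C1qa) and 5 (263 CPM, with the highest Ly6c2). Csf2rb2 peaked in cluster 13 (184 CPM), which had the highest Ccr7 and Siglech. All 5 receptor chains were lowest or second lowest, under 6 CPM, in cluster 11, where the carcinoma gene Krt8 was highest. The averages are the authors' means without n or error, so neighbours in these orders cannot be separated.

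**Figure D5:**
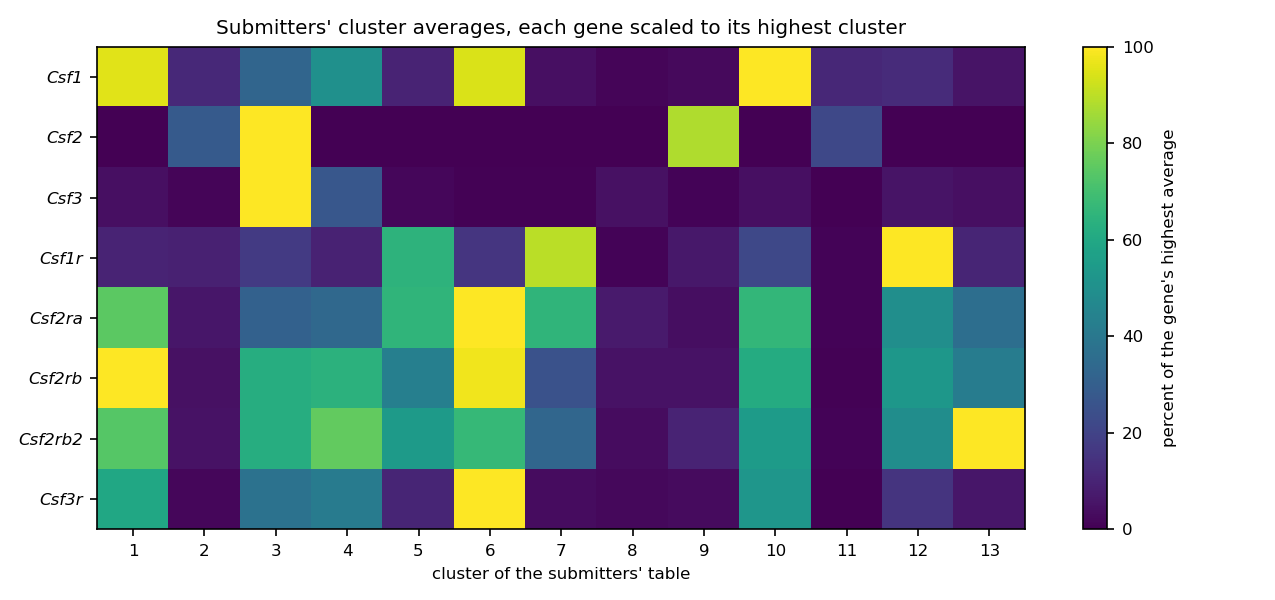
The authors' average of each gene in 13 clusters (columns), as a percent of the gene's highest cluster (color, 0 to 100). Csf3 has its maximum in cluster 3, Csf3r and Csf2ra in cluster 6, Csf1r in cluster 12 and Csf2rb2 in cluster 13.

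Genes with a pattern like that of each member were named over 9 sums of at least 50 cells of 1 class in 1 library, among 7351 genes, by Pearson's r of log2(CPM + 5). The sums share libraries and depths, and the values are descriptions. Csf3 was most like Lcn2 (r = 0.938), Sod2 (0.930) and Chil1 (0.929), and Csf3r most like Grina (0.991), Tet2 (0.989) and Msrb1 (0.986). Csf1 was most like Rnf11 (0.965), Txnrd1 (0.952) and Socs3 (0.951), and Csf1r most like Psap (0.953), Cebpa (0.938) and Acer3 (0.932). Among the genes nearest to Csf2ra were Cd300c2 and Bcl2a1a (both 0.976). Csf2rb was nearest to Alcam, Aph1c and F630028O10Rik (0.976 to 0.987) and Csf2rb2 to I830077J02Rik, Bcl2a1a and Tfe3 (0.958 to 0.962).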

How the data were processed

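The deposited matrix gives, per gene and barcode, raw counts of UMIs. The authors made them from 5′ reads with Cell Ranger 3.0.2 (per the file headers) on mm10, as the submitters' processing notes name it. The deposited cluster table holds a signal per gene, the authors' average over the cells of each of 13 clusters scaled to 1311 UMIs, the median over all barcodes. Columns of the authors' own fold changes and p-values were not used.

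Barcodes were given a genotype by their suffix, since the authors' averages of each library equalled the UMIs summed over 1 suffix to within 3.58e-08 (Smad3-WT) and 4.91e-09 (Smad3-KO). There were 4116 barcodes with 23951400 UMIs for Smad3-WT, and 2514 with 4214290 for Smad3-KO. The filter asked for over 500 and under 20000 UMIs per cell, 200 or more genes and a mitochondrial share below 10%. The upper limit removed 382 Smad3-WT and 0 Smad3-KO cells. Doublets were not removed in the main values.

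Counts per 10000 were logged, and 2000 variable genes without the 8 members, 15 neighbours in the space of 100 principal components and Louvain clustering (igraph 0.11.9, resolution 1.0, seed 1) gave 17 clusters. A cluster took a "like" name when at least 3 markers of a list were in 10% of its cells at 2 times the level of other cells and its 10 leading genes held no more markers of another class than of its own. These names are rebuilt and were not matched to an outside reference. Levels, shares and ratios were computed with scipy 1.17.1. The ratio, its interval and the 2-fold limit were tested on simulated sums with counting error only, and levels and shares were not. A gene at 0 UMIs in 1 library was set to a floor of 3 UMIs. Thinning to 500 UMIs left out 0 cells. Positions are from GENCODE M21, and upstream sequences from RefSeq GRCm38.p6. Members, gene lists and markers were chosen with earlier results of these data known. Named genes are the members, at most 6 of each list (those with the highest and lowest ratios, with Jak2 and Mcl1 added after their values were seen), the 3 genes most like each member, and the 4 leading genes of a cluster. Some genes that meet this rule are not reported here.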

Additional observations from a re-analysis of the deposited data

Results flagged for a closer look

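With 1 library per genotype, no difference between classes could be tested, and the following are values only. Csf1 had a ratio of 2.02 in fibroblast-like cells, above 1, and of 0.287 in neutrophil-like and 0.359 in T or NK-like cells (11 UMIs in each library), below 1. Csf2ra had a ratio of 3.16 in LLC carcinoma-like cells (114 and 6 UMIs), against 0.476 in neutrophil-like, 0.521 in mononuclear phagocyte-like, 0.223 in fibroblast-like and 0.168 in T or NK-like cells. Csf2rb2 had a ratio of 8.84 in LLC carcinoma-like cells (34 and 5 UMIs), against 0.713 in neutrophil-like and 0.154 in T or NK-like cells. The LLC carcinoma-like class had 39 Smad3-KO cells, with a median depth of 670 UMIs per cell where Smad3-WT had 13150. Csf3r in this class stood at 0.0260 and 0.0837 times the neutrophil-like level in Smad3-WT and Smad3-KO. Both quotients lay inside the range of the neutrophil markers (0.0104 to 0.0596 and 0 to 0.103). Csf2ra and Csf2rb2 were not compared with such markers, and the part of myeloid RNA in their counts was not tested.

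The cells of 20000 UMIs or more, which the filter removed and which came from the Smad3-WT library alone, also held ligand UMIs. These 382 cells, of which 97.4% carried the carcinoma gene Krt8, had 875 UMIs of Csf1, at 76.9 CPM (interval 71.9 to 82.2), and 9 UMIs of Csf2 in 9 cells, at 0.791 CPM (interval 0.362 to 1.502). Csf2 had 4 UMIs in all the Smad3-WT cells that were kept.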

How the results depend on the processing

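In neutrophil-like cells, the ratios of Csf1 (0.280 to 0.361), Csf3 (38.6 to 58.2), Csf1r (1.18 to 1.64), Csf2ra (0.468 to 0.599), Csf2rb (0.771 to 0.983), Csf2rb2 (0.691 to 0.931) and Csf3r (0.673 to 0.861) kept their direction in 13 of 13 alternatives, apart from those on single clusters. Scaling by the median of ratios gave 0.361 for Csf1, 0.599 for Csf2ra, 0.983 for Csf2rb, 0.898 for Csf2rb2 and 0.861 for Csf3r, and left 1 member past the limit downward in place of 2. Averaging over cells gave 0.336 for Csf1. Thinning to 500 UMIs gave 0.907 for Csf2rb, 0.931 for Csf2rb2 and 0.789 for Csf3r, and a Csf3 share of 8.60% in Smad3-KO, where at least 2 UMIs gave 8.503%. Cluster 1 alone, an alternative chosen after seeing the data, gave 0.416 for Csf1, 0.794 for Csf1r, 0.834 for Csf2ra, 1.30 for Csf2rb, 0.963 for Csf2rb2 and 1.49 for Csf3r, with 0 of 6 measured members past the limit upward (8.93% of all genes) and 1 downward (18.2%); the cause was not tested. Without cluster 13, likewise chosen afterwards, all ratios stayed within their intervals. Over all cells, Csf1r and Csf2ra lost their place past the limit without the upper limit on UMIs (0.825 and 0.912), as fibroblast-like Csf1 did under several settings (1.70 to 2.13), while Csf3r, Csf2rb and Csf2rb2 crossed 1 under some alternatives (0.638 to 2.64, 0.655 to 2.02 and 0.637 to 1.88), and in mononuclear phagocyte-like cells Csf1r did so in 2 of 13 (0.641 to 1.02). The 3 genes most like a member changed with the measure: at most 1 of the 3 stayed among them. No paired analysis was possible because each genotype has 1 library. The library with the fewer UMIs of a gene, which differs between genes and classes, limits the precision of its ratio.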
